A study of Mus musculus with 24 samples.

Results

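The effect of olfactory bulbectomy, an operation that takes out the olfactory bulbs, was followed across 3 brain regions of wild-type mice by asking which genes moved the same way in the hippocampus, the cortex and the cerebellum. All 24 libraries of the series entered 1 fit, in which the tissue was a block and bulbectomy had a single effect. The bulbectomy libraries numbered 9, with 4 of hippocampus, 3 of cortex and 2 of cerebellum, and the sham-operated libraries numbered 15, with 5 of each tissue. Every mouse was wild-type, and the labels used here give no strain, sex, age or time after surgery. Libraries not analysed here are number 3 of bulbectomised cortex and numbers 3 and 4 of bulbectomised cerebellum. Of 16564 genes tested, 1015 were called with the same direction in all 3 tissues, 532 higher and 483 lower after bulbectomy.

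The olfactory bulb sends its output to the piriform and entorhinal cortex and the amygdala, and from there signals reach the hippocampus. Removing the bulbs in rodents is a long-used model of agitated depression, and a raised output of the adrenal stress hormone corticosterone is among the changes described in it. In bulk tissue, fewer cells of a type and less RNA per cell cannot be told apart.

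Depth ranged from 3255661 assigned reads in hippocampus sham 1 to 138963332 in hippocampus sham 4, with 8145624 to 20230673 in the others. Markers set the cerebellum libraries apart, while hippocampal markers in the sham hippocampus reached down into the cortex range. On the log2 scale of CPM, the reads of a gene scaled to a common library total, the mean level of cerebellar granule and Purkinje neuron genes was 7.58 to 7.71 in cerebellum bulbectomy and 7.55 to 8.35 in cerebellum sham libraries, and at most 3.55 elsewhere. Hippocampal neuron genes lay at 4.91 to 5.11 in hippocampus bulbectomy libraries and 3.25 to 5.27 in hippocampus sham libraries, against 3.01 to 3.72 in the cortex. Hippocampus sham 1 and 2 also carried striatal neuron genes, which reached 6.75 there.

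At a set of variable genes, same-numbered bulbectomy libraries were more alike than those with different numbers, as libraries of 1 mouse would be. There was 1 exception that bears on the results. The labels do not say whether a number marks an animal. Over all genes, deviations from the group means correlated at -0.13 to 0.42 (median 0.26) in same-numbered sham pairs. Sham pairs with different numbers gave -0.44 to 0.43 (median -0.07). After bulbectomy the ranges were -0.05 to 0.24 (median 0.11) and -0.25 to 0.24 (median -0.02). Deviations within a group sum to 0, so same-numbered and different-numbered pairs are not independent. Cerebellum bulbectomy has 2 libraries, so any library correlates with them at equal values of opposite sign. The rule set for pairing, a correlation over 0.1 in every same-numbered pair, was thus not met in either treatment. A group of 19 genes, immunoglobulin genes left out, was chosen for varying more between sham numbers than between the tissues of a number, by at least 10 times as a variance ratio, with number means spread over at least 3 log2 units, and these were then read in the bulbectomy libraries, which had no part in choosing them. The tissues of a number were not level at every gene: same-numbered sham pairs differed by more than 4-fold at 0 to 5 of the 19 (median 1, 15 pairs), with 5 between cortex sham 1 and cerebellum sham 1, and sham pairs with different numbers at 3 to 18 (median 9, 60 pairs), so the ranges overlap. In the shams this contrast follows from how the 19 genes were chosen and is no test of shared animals. Among the 6 pairs of libraries with number 1 or number 2 after bulbectomy, 0 to 2 of the 19 genes differed by more than 4-fold between tissues. Among the 19 pairs with different numbers, 3 to 9 differed. Hippocampus bulbectomy 4 and cortex bulbectomy 4 differed at 8. The ribosomal protein gene Rpl26, for example, read 388.5 CPM in cortex bulbectomy 4 and 13.7 CPM in hippocampus bulbectomy 4, and the class II histocompatibility gene H2-Eb1 read 20.04 CPM and 272.6 CPM in the same pair. Cortex bulbectomy 4 was therefore treated as a separate animal in the fits that allow for animals, which gives 10 animals, 5 bulbectomised and 5 sham.

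The treatment was given to animals, and each animal may have given up to 3 libraries. The p-values of the fit over libraries are too small if libraries of 1 animal vary together. The consensus correlation between libraries of 1 animal was 0.23 in a limma voom fit with animal as a random block. That fit called 481 genes, 2.90% of those tested, and 447 of the 1015 were among them. A second, stricter fit on 1 mean per animal called 112, of which 98 were among the 1015. Both fits took the cortex library set apart above as its own animal, a choice made after seeing the data. The planned fits, with animals taken from the numbers alone, called fewer genes. With animal as a random block the planned fit called 354, of which 334 were among the 1015. On animal means it called 13, of which 12 were among the 1015. The adjusted p with animal as a random block, from limma, is given beside genes below as the animal-block adjusted p. It comes from the fit with that cortex library apart.

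The fit over libraries called 1026 genes at a Benjamini-Hochberg adjusted p under 0.05 in edgeR's quasi-likelihood test, 6.19% of those tested. The 1015 that also had 1 sign in all 3 tissues were 6.13% of the tested genes, with 3.21% higher and 2.92% lower. Over all tested genes 52.34% had the same sign in all 3 tissues. The median log2 fold change of the 532 higher genes was 0.64 in the hippocampus, 0.55 in the cortex and 0.54 in the cerebellum. For the 483 lower genes it was -0.85 in the hippocampus, -0.47 in the cortex and -0.62 in the cerebellum. These medians describe genes chosen on the same libraries and carry no test. At least a doubling or halving in the common effect was fitted for 210 genes, 103 higher and 107 lower.

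At the called genes, the shared change was seen in each bulbectomy library but 1. The genes were called on these same libraries, so a shift after bulbectomy largely follows from the choice. In the hippocampus the 532 higher genes lay a median of 0.53 to 0.75 log2 units above the sham mean in bulbectomy libraries and -0.21 to 0.13 in sham libraries. In the cerebellum these ranges were 0.53 to 0.56 after bulbectomy and -0.28 to 0.09 after sham. In the cortex, bulbectomy 2 and 4 lay at 0.76 and 0.71, while bulbectomy 1 lay at 0.11, within the sham range of -0.09 to 0.12. The 483 lower genes gave the same picture, with -0.78 and -0.89 in cortex bulbectomy 2 and 4, 0.05 in cortex bulbectomy 1 and -0.16 to 0.16 in cortex sham. Cortex bulbectomy 1 differed from hippocampus bulbectomy 1 by more than 4-fold at 0 of the 19 genes chosen for varying between sham numbers. Without it 2336 genes were called, and 1010 of the 1015 were among them. Without hippocampus sham 1 and 2, the libraries with striatal genes, 775 genes were called, 705 of the 1015 among them, with 7 of the glucocorticoid and 10 of the protocadherin genes described below. Cerebellum sham 1 lay farthest from the other shams in the direction opposite to bulbectomy, at -0.28 for the higher and 0.34 for the lower genes.

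**Figure D1:**
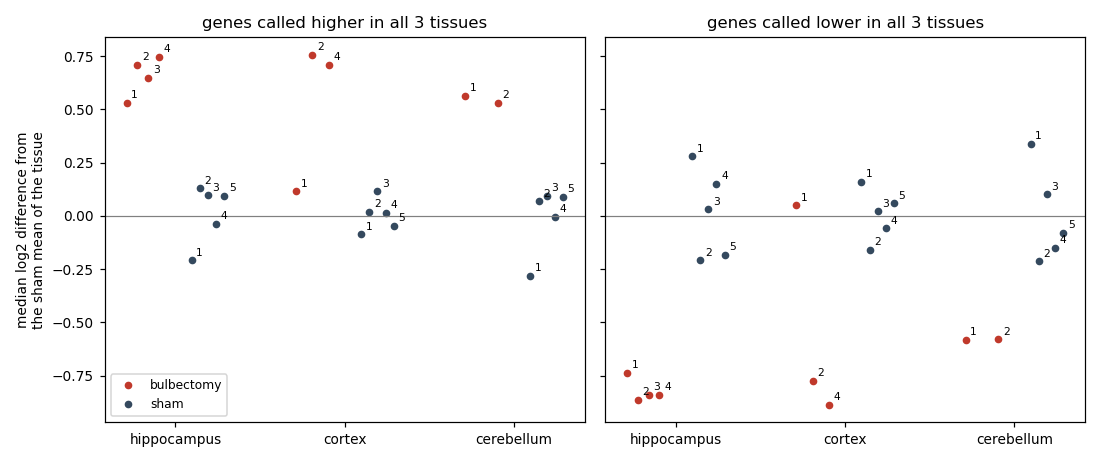
Median log2 difference from the sham mean of the same tissue over the 532 genes called higher (left panel) and the 483 called lower (right panel), 1 point per library with its number, bulbectomy red and sham blue. Cortex bulbectomy 1 lies among the sham libraries at 0.11 and 0.05, while the other bulbectomy libraries lie at 0.53 or more and at -0.58 or less; the genes were chosen on these libraries.

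Lrrc8a, which encodes an obligatory part of the anion channel that opens when cells swell, was the gene of smallest p. It read 46.5, 49.5, 48.1 and 56.3 CPM in hippocampus bulbectomy libraries, against 8.56, 9.60, 9.57, 12.8 and 14.7 CPM in hippocampus sham libraries. In the cortex it read 13.8, 31.6 and 34.5 CPM after bulbectomy, against 8.85, 9.86, 13.3, 12 and 12.1 CPM after sham. The cerebellum gave 62.4 and 48.8 CPM after bulbectomy, against 23.8, 15.7, 15.2, 20.6 and 14.3 CPM after sham. Bulbectomy and sham libraries did not overlap in any tissue, although cortex bulbectomy 1 stood just above the highest cortex sham. Lrrc8a rose by 1.72 ± 0.16 on the log2 scale, as a common effect (SE, edgeR adjusted p = 7.84e-07, animal-block adjusted p = 0.000143). Lrrc8a lies on chromosome 2 (30237715 to 30263790, mm10), and 66.2% of its exon bases are shared with other annotated genes on the same strand, so its counts rest on the remainder or on how shared reads were assigned.

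Dpysl2, a collapsin response mediator protein of axon growth, read 359.8, 482.3, 292 and 304 CPM in hippocampus bulbectomy libraries, against 49, 79.9, 61.1, 70.8 and 89.5 CPM in hippocampus sham libraries. After bulbectomy the cortex gave 99.9, 363 and 248 CPM, against 78.8, 87.7, 98.4, 95.4 and 112 CPM after sham. Cortex bulbectomy 1 lay inside the sham range here. The cerebellum gave 161 and 185 CPM after bulbectomy, against 93.8 CPM in sham 1 and 31.9 to 39.8 CPM in the other shams. Dpysl2 rose by 1.89 ± 0.21 on the log2 scale (SE, edgeR adjusted p = 7.44e-06, animal-block adjusted p = 0.00053). Nlgn3, a postsynaptic adhesion protein, moved in the same manner, with means of 59.4, 44.2 and 36.2 CPM after bulbectomy in hippocampus, cortex and cerebellum and 19.4, 24.7 and 15.5 CPM after sham. Its log2 fold change was 1.25 ± 0.15 (SE, animal-block adjusted p = 0.00125), and 41.2% of its exon bases are shared with a gene on the same strand.

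Zmat3, a zinc finger RNA-binding protein and known p53 target, rose by 0.88 ± 0.10 on the log2 scale (SE, edgeR adjusted p = 1.18e-05). Its hippocampus bulbectomy libraries read 79.7, 84.4, 64.2 and 83.3 CPM, against 29.8, 45.9, 35.9, 40.2 and 42.2 CPM in hippocampus sham. The cortex read 67.0, 109 and 80.9 CPM after bulbectomy, against 42.7, 54.3, 61, 49.4 and 62.8 CPM after sham. In the cerebellum the values were 75.8 and 74.6 CPM after bulbectomy, against 44, 40.8, 38.1, 33.1 and 33.5 CPM after sham. The groups were apart in all 3 tissues, and the animal-block adjusted p was 0.000675. Of the 12 higher genes of smallest p, Lrrc8a, Zmat3 and Tpm3-rs7 were called when the hippocampus was left out (edgeR adjusted p = 0.00933, 0.0407 and 0.00183).

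Sdc4, a cell-surface heparan sulfate proteoglycan, was 102.6 ± 17.0 CPM in hippocampus bulbectomy (SD, n = 4) and 35.5 ± 9.12 CPM in hippocampus sham (SD, n = 5). In the cortex it was 63.5 ± 16.5 CPM after bulbectomy (n = 3) and 31.0 ± 8.37 CPM after sham (n = 5), and in the cerebellum 117 ± 13.6 CPM after bulbectomy (n = 2) and 65.8 ± 8.65 CPM after sham (n = 5). Its common log2 fold change was 1.18 ± 0.14 (SE, animal-block adjusted p = 0.00053), and again no bulbectomy library overlapped a sham library of its tissue. Inafm2, a small membrane protein gene, rose by 1.14 ± 0.14 and Mllt6, a chromatin-associated protein known from leukaemia fusions, by 1.13 ± 0.14 (log2, SE). The retinal reductase gene Dhrs3 rose by 0.95 ± 0.13, the actin regulator Wipf2 by 0.64 ± 0.09 and the neuronal calcium sensor Ncs1 by 0.58 ± 0.09. The animal-block adjusted p of these 5 ranged from 0.00104 for Inafm2 to 0.00802 for Ncs1.

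**Figure D2:**
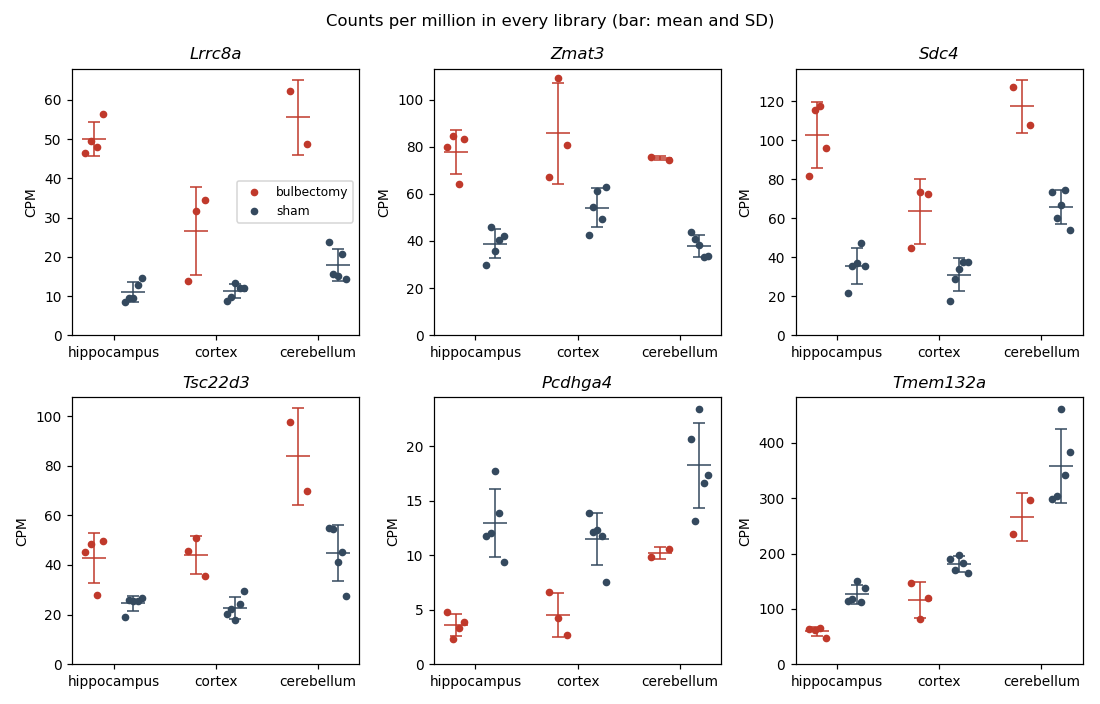
CPM of 6 genes in every library, bulbectomy (red) left of sham (blue) within each tissue, with the mean and SD of each group; the vertical axes start at 0. Lrrc8a, Zmat3, Sdc4 and Tsc22d3 are higher and Pcdhga4 and Tmem132a lower in every bulbectomy library than in every sham library of the same tissue; the groups come closest for Tmem132a in the cerebellum, with bulbectomy 2 at 296.7 and sham 1 at 298.4 CPM.

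The genes that fell were led by the clustered protocadherins, cell-adhesion proteins whose variable exons give each neuron its own surface identity. Pcdhgc5 read 29.0, 28.4, 25.4 and 19.9 CPM in hippocampus bulbectomy libraries, against 68.2, 64.6, 89.2, 75.2 and 58.8 CPM in hippocampus sham libraries. In the cortex it read 85.2, 38.8 and 35.2 CPM after bulbectomy, against 114, 98.2, 106, 92.3 and 80.3 CPM after sham, and in the cerebellum 5.30 and 5.79 CPM after bulbectomy, against 11.1, 13, 17.7, 9.72 and 10.8 CPM after sham. Cortex bulbectomy 1 was again the single library inside the sham range. Pcdhgc5 fell by 1.19 ± 0.15 on the log2 scale (SE, edgeR adjusted p = 4.29e-05, animal-block adjusted p = 0.00053).

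Pcdhga4 was separated in all 3 tissues. It read 4.78, 2.33, 3.30 and 3.88 CPM in hippocampus bulbectomy and 11.8, 12, 17.7, 13.9 and 9.34 CPM in hippocampus sham libraries. The cortex gave 6.64, 4.28 and 2.66 CPM after bulbectomy and 13.9, 12.1, 12.3, 11.7 and 7.503 CPM after sham, and the cerebellum 9.82 and 10.6 CPM after bulbectomy and 20.6, 13.1, 23.4, 16.6 and 17.4 CPM after sham. Its log2 fold change was -1.38 ± 0.18 (SE, animal-block adjusted p = 0.00265). Pcdhga5, Pcdhga6 and Pcdhac2 fell by 1.81 ± 0.29, 1.14 ± 0.19 and 1.65 ± 0.28 (log2, SE). Pcdhac1 had 1, 0, 1 and 0 reads in the hippocampus bulbectomy libraries, against 0.60 to 2.06 CPM in hippocampus sham, and its common log2 fold change was -2.65 ± 0.38 (SE).

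Of 21 measured members of the protocadherin list, 10 fell, 0 rose and all 21 had a fold change below 0, with a median of -0.86. Over all genes tested, 2.92% were called lower and the median was near 0 (-0.0045). The animal-block fit called 8 of the 10. Taking every alpha, beta and gamma protocadherin of the annotation that passed the filter, a set drawn up after their values were seen, 18 of 53 fell and 52 of 53 had a fold change below 0. The alpha cluster held 5 of 11 called, the gamma cluster 12 of 21 and the beta cluster 1 of 21. With animal as a random block these were 5, 10 and 0, or 15 of the 18. The median over the 53 was -1.24 in the hippocampus, -0.53 in the cortex and -0.82 in the cerebellum. Members of the alpha and gamma clusters share constant exons, and 39.6% to 66.8% of the exon bases of the 6 named here overlap another gene on the same strand, so how reads of the shared part were assigned is uncertain. Without cortex bulbectomy 1, 17 of the 21 were called, beside 2336 genes in all. Without the hippocampus edgeR called 0 of the 21, with a median of -0.72, beside 9 genes in all.

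Genes outside the cluster fell with it. Tmem132a, a transmembrane protein, read 63.1, 62.4, 65.2 and 46.8 CPM in hippocampus bulbectomy libraries, against 114, 118, 151, 112 and 137 CPM in hippocampus sham libraries. In the cortex it read 147, 82.0 and 119.7 CPM after bulbectomy, against 189.9, 171, 198, 182 and 164 CPM after sham, and in the cerebellum 235 and 297 CPM after bulbectomy, against 298, 304, 461, 342 and 384 CPM after sham. These groups did not overlap either, and Tmem132a fell by 0.76 ± 0.12 on the log2 scale (SE, edgeR adjusted p = 0.000859, animal-block adjusted p = 0.00507). The chondroitin synthesis enzyme Chpf2 fell by 0.91 ± 0.15, the prolyl endopeptidase-like enzyme Prepl by 1.06 ± 0.17, the Rac exchange factor Prex1 by 0.64 ± 0.11 and the lipid transporter Abca3 by 0.72 ± 0.13 (log2, SE). Prepl reached 264 CPM in cortex bulbectomy 1, against 103 and 72.9 CPM in the other 2 cortex bulbectomy libraries and 213 to 269 CPM in cortex sham.

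**Figure D3:**
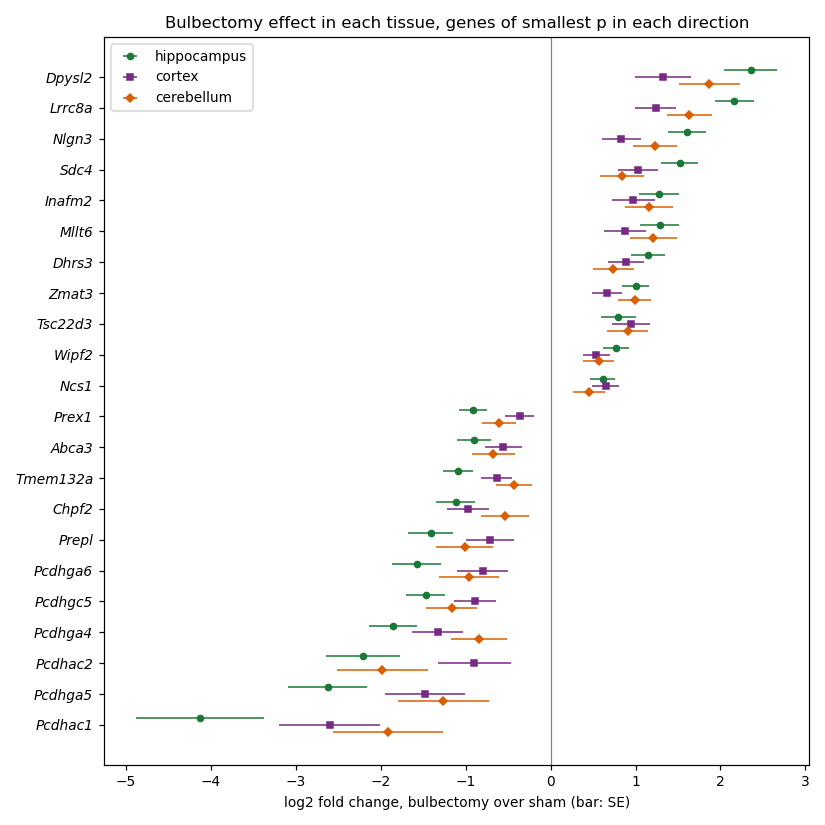
Log2 fold change of bulbectomy over sham in the hippocampus (circles), cortex (squares) and cerebellum (diamonds), with SE, for the genes of smallest p in each direction other than Tpm3-rs7 and Vcp-rs. All points of a gene lie on the same side of 0; the value of Pcdhac1 in the hippocampus, -4.13, rests on 2 bulbectomy libraries with 1 read each and 2 with none.

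A pair of gene copies were among the genes of smallest p and also differed between animals of the same treatment. Tpm3-rs7, a related sequence of the tropomyosin gene Tpm3, on chromosome 14, read 25.01, 64.2, 0.89 and 31.1 CPM in the hippocampus bulbectomy libraries 1 to 4, and 0.46 to 1.48 CPM in hippocampus sham. It read 30.4, 78.4 and 0.61 CPM in cortex bulbectomy 1, 2 and 4, and 0.49 to 1.45 CPM in cortex sham. In the cerebellum it read 22.1 and 51.1 CPM after bulbectomy and 0.29 to 0.98 CPM after sham. Hippocampus bulbectomy 3 and cortex bulbectomy 4 thus sat at the sham level. Vcp-rs, a related sequence of the ATPase gene Vcp, on chromosome X, read 0.13 to 6.78 CPM in the 9 bulbectomy libraries, while the sham animals ranged from 1.60 to 1.88 CPM in the 3 libraries of sham 4 to 45.8 to 55.8 CPM in those of sham 3. Vcp-rs had an edgeR adjusted p of 0.00114, but an animal-block adjusted p of 0.0824. For Tpm3-rs7 the animal-block adjusted p was 0.032. The parent gene Tpm3 fell by 0.59 ± 0.16 on the log2 scale (SE, edgeR adjusted p = 0.0258), a call that was lost with animal as a random block (animal-block adjusted p = 0.056). Its lowest hippocampus reading, 53.8 CPM, was in bulbectomy 2, where Tpm3-rs7 was highest, and its highest, 173 CPM, was in bulbectomy 3, where Tpm3-rs7 was near 0. Reads of such copies can be placed on either, so the split between parent and copy is uncertain. The pseudogene Gm14719 also followed animals, at 7.002, 7.71, 0 and 7.15 CPM in hippocampus bulbectomy 1 to 4 and 0 to 0.042 CPM in hippocampus sham.

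**Figure D4:**
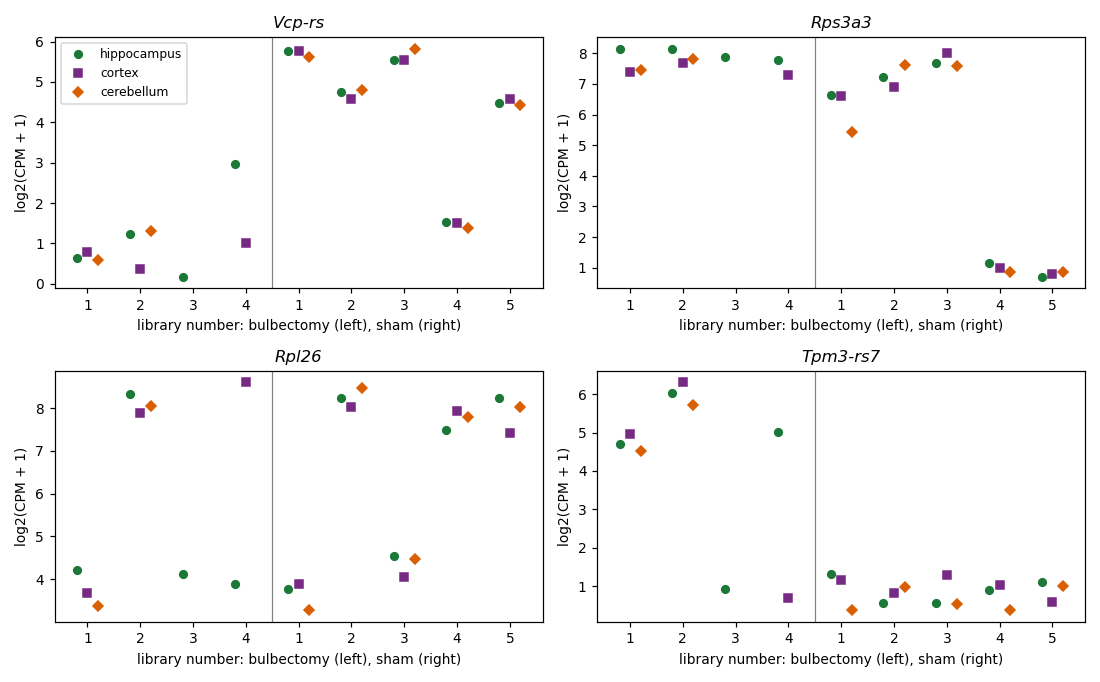
Log2(CPM + 1) of 4 genes by library number, bulbectomy numbers left and sham numbers right of the line, with hippocampus circles, cortex squares and cerebellum diamonds. Symbols of 1 number lie close together except at bulbectomy 4, where Rpl26 reads 388.5 CPM in the cortex and 13.7 CPM in the hippocampus and Tpm3-rs7 reads 0.61 CPM in the cortex and 31.1 CPM in the hippocampus.

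Glucocorticoids enter cells and act through a receptor that switches on a well-known group of genes, and these were followed as a list of 20. Of the 20, 7 rose, 0 fell and 18 had a fold change above 0, with a median of 0.39, against 3.21% called higher and a median near 0 over all genes. Tsc22d3, the glucocorticoid-induced leucine zipper, read 45.1, 48.6, 27.8 and 49.8 CPM in hippocampus bulbectomy libraries, against 19.2, 25.9, 25.5, 25.4 and 26.7 CPM in hippocampus sham. The cortex read 45.5, 50.7 and 35.6 CPM after bulbectomy, against 20.2, 22.2, 17.9, 24.2 and 29.4 CPM after sham, and the cerebellum 97.6 and 70.0 CPM after bulbectomy, against 55, 54.6, 41.3, 45 and 27.5 CPM after sham. Tsc22d3 was apart in all 3 tissues, in cortex bulbectomy 1 as well, and rose by 0.88 ± 0.12 on the log2 scale (SE, edgeR adjusted p = 0.00021, animal-block adjusted p = 0.00802).

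The other 6 were the stress-response mTOR inhibitor Ddit4 (log2 fold change 0.61 ± 0.11 SE), the lipid droplet protein Plin4 (1.11 ± 0.21), the hypoxia factor Hif3a (0.94 ± 0.18), the cell-cycle inhibitor Cdkn1a (0.64 ± 0.16), the NF-kappaB inhibitor Nfkbia (0.57 ± 0.15) and the metallothionein Mt2 (0.87 ± 0.23). Plin4 read 18.6, 15.7, 15.4 and 19.0 CPM in hippocampus bulbectomy libraries and 4.43 to 9.89 CPM in hippocampus sham. In the cortex it read 6.97, 6.81 and 9.40 CPM after bulbectomy and 1.34 to 6.18 CPM after sham. The animal-block fit called 5 of the 7, leaving out Cdkn1a and Nfkbia (animal-block adjusted p = 0.0565 and 0.0579). The classical targets Fkbp5, Sgk1 and Per1 were not called, with log2 fold changes of 0.14 ± 0.11, 0.14 ± 0.16 and 0.13 ± 0.11 (SE), and Zbtb16 had -0.62 ± 0.27 (SE, edgeR adjusted p = 0.162). Without hippocampus, 0 of the 20 were called by edgeR, and the median was 0.36. That fit called 9 genes in all, 0.054% of the 16564, so 0 of 20 is near the share over all genes.

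**Figure D5:**
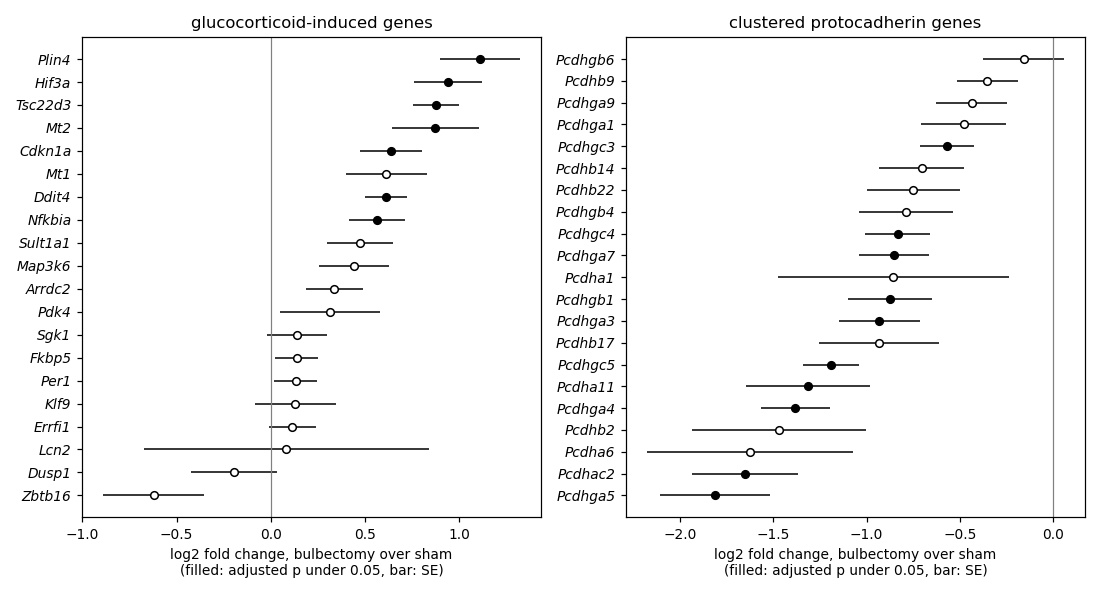
Common log2 fold change of bulbectomy over sham with SE for the 20 glucocorticoid-induced genes (left) and the 21 clustered protocadherin genes (right), filled where the edgeR adjusted p is under 0.05. Of the left list 18 lie above 0 and 7 are filled, and of the right list all 21 lie below 0 and 10 are filled.

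The promoters of the 7 called glucocorticoid-induced genes were read from RefSeq on GRCm38.p6. The 250 bases before each annotated start gave 10 windows for the 7 genes. The spaced core ACANNNTGT of the glucocorticoid response element, a palindrome that reads the same on both strands, was in 0 of the 10, and in 5.84% of all 32851 such windows. The promoter of Mt2 is shown because metallothionein genes also answer to metals through the metal response element, searched as TGCACNC or TGCGCNC on both strands. Mt2 held 3 matches, set in capitals, and 21.4% of all windows held at least 1. The window is chr8:94172368-94172617 on the plus strand, printed 5′ to 3′.
Mt2: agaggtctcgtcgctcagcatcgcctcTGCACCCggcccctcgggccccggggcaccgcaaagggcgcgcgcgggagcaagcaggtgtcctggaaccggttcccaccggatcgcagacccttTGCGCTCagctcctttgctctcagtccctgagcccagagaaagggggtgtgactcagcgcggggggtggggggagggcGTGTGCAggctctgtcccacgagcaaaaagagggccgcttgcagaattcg
Mt2 itself read 98.6, 84.0, 154 and 79.1 CPM in hippocampus bulbectomy libraries, against 14.2 to 74.7 CPM in hippocampus sham, and 73.5% of its exon bases lie opposite a gene on the other strand.

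Respiratory chain genes leaned higher. Of 36 nuclear-encoded members 4 rose, 0 fell and 34 had a fold change above 0, with a median of 0.25, against 3.21% called higher over all genes. Over all genes 8203 of 16564 had a fold change above 0. With the trend over length and GC described below removed, the median of the 36 was 0.17. Cytosolic ribosome genes, with 0 called, lay above 0 in 31 of 35. Their median was 0.17, and 0.05 with the trend removed. The list medians were 0.36 in the hippocampus and 0.35 in the cortex but 0.02 in the cerebellum, and 19 of the 36 were higher in all 3 tissues. The ATP synthase subunit gene Atp5g1 rose by 0.73 ± 0.12, and the cytochrome oxidase subunit genes Cox8a and Cox7a2 by 0.67 ± 0.13 and 0.51 ± 0.15 (log2, SE). With animal as a random block 2 of the 4 were called, Atp5g1 and Cox8a, while Cox7a2 was not (animal-block adjusted p = 0.0969). Of the 7 mitochondrially encoded genes that passed the filter 4 rose, among them mt-Nd1 (0.60 ± 0.13), mt-Nd6 (0.76 ± 0.18) and mt-Nd4 (0.79 ± 0.20), and all 7 had a fold change above 0. These 3 were called with animal as a random block, and the other one was not. Mitochondrial genes took 8.33% to 10.78% of the reads in hippocampus bulbectomy and 4.84% to 13.28% in hippocampus sham libraries, so the groups overlapped. They overlapped in the cortex too, at 7.76% to 13.06% after bulbectomy and 4.39% to 11.09% after sham. In the cerebellum they took 7.35% to 7.78% after bulbectomy and 2.53% to 7.03% after sham. Antioxidant and metallothionein genes had 4 of 19 higher and 0 lower, against 3.21% and 2.92% over all genes, with Gstm1 at 0.59 ± 0.13, Srxn1 at 0.37 ± 0.08 and Mt2 above (log2, SE). The list medians were 0.32 in the hippocampus, 0.35 in the cortex and 0.06 in the cerebellum, and 3 of the 4, those named, were called with animal as a random block. Srxn1, which restores oxidised peroxiredoxins, was apart in all 3 tissues.

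Chromatin regulators had 3 of 22 lower and 1 higher, against 2.92% and 3.21% over all genes, and 2 of the 3 lower genes, Adnp and Smarca2, were called with animal as a random block. Adnp, a homeodomain zinc finger protein, showed the largest fold of them, at -2.47 ± 0.45 (log2, SE, animal-block adjusted p = 0.00166). It was counted at 0.22, 0, 0.13 and 0 CPM in hippocampus bulbectomy and 1.48 to 3.25 CPM in hippocampus sham libraries. Of its exon bases 82.1% belong also to another annotated gene on the same strand, so these counts say little about the level of the whole transcript. The remodelling ATPase Smarca2 fell by 0.65 ± 0.16 and the deacetylase Hdac4 rose by 0.77 ± 0.15 (log2, SE).

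Markers of some cell types were called, and over all genes 3.21% were called higher and 2.92% lower. Among 14 astrocyte genes 3 rose and 1 fell: the transcription factor Sox9 at 0.93 ± 0.17, the aldolase Aldoc at 0.47 ± 0.12 and S100b at 0.63 ± 0.18 rose, and the growth factor receptor Fgfr3 fell by 0.36 ± 0.10 (log2, SE). The summed level of the 14 was 5540 to 6192 CPM in hippocampus bulbectomy and 3736 to 5750 CPM in hippocampus sham libraries. Of 16 reactive astrocyte genes edgeR called 0, with 2 at an unadjusted p under 0.05, against 23.86% of all tested genes. The log2 fold changes of Gfap were 0.74, 0.16 and -0.31 in hippocampus, cortex and cerebellum. Among 16 endothelial and pericyte genes Ly6c1 rose by 0.77 ± 0.15 and Slc2a1 by 0.32 ± 0.09, while Tek and the drug transporter Abcb1a fell by 0.62 ± 0.13 and 0.94 ± 0.24 (log2, SE). Of 15 homeostatic microglia genes Selplg and Olfml3 rose, by 0.53 ± 0.14 and 0.45 ± 0.13, and of 20 disease-associated microglia genes 1, the lysosomal protein Cd68, rose, by 0.64 ± 0.16 (log2, SE), a share near that of all genes. With animal as a random block Sox9, Ly6c1, Tek, Abcb1a, Selplg and Cd68 of these were called. The part of such cells in the other results was not tested.

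Some members of further lists were called. The neutrophil gene S100a9 fell by 1.81 ± 0.46, the calcium channel Itpr1 by 1.25 ± 0.28, the amyloid precursor relative Aplp2 by 0.59 ± 0.12, the chaperone Hsph1 by 0.71 ± 0.17, the immediate early gene Junb by 0.64 ± 0.19, the nicotinic receptor modulator Lypd6 by 0.78 ± 0.19, the exchange factor Rasgrf2 by 0.75 ± 0.21 and the GDNF receptor Gfra1 by 0.44 ± 0.11 (log2, SE). The neuroblast transcription factor Sox11 rose by 0.87 ± 0.21, the neurotrophin receptor Ntrk3 by 0.41 ± 0.10, the endoplasmic reticulum protein Manf by 0.42 ± 0.13 and acetylcholinesterase (Ache) by 0.54 ± 0.15 (log2, SE). With animal as a random block, Junb, Lypd6, Rasgrf2, Gfra1, Manf and Ache were not called. The lists of interferon response, myelin and oligodendrocyte, oligodendrocyte precursor, meningeal fibroblast, choroid plexus, striatal neuron, hippocampal neuron, neuropeptide, cytosolic ribosome, circadian clock and cholesterol synthesis genes held 0 genes that edgeR called with the same direction in all 3 tissues. Each held 1 to 5 genes at an unadjusted p under 0.05, of 10 to 35 tested members. Over all tested genes 6.13% were called so, and 23.86% had an unadjusted p under 0.05.

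Markers of the thalamus and habenula, which lie against the hippocampus, were higher in its bulbectomy libraries. The mean log2 CPM of 18 such genes was 3.42 to 4.13 in hippocampus bulbectomy and 1.58 to 2.85 in hippocampus sham libraries. It was 1.49 to 1.80 in cortex bulbectomy and 1.22 to 1.70 in cortex sham libraries, and 1.63 to 1.83 in cerebellum bulbectomy and 1.42 to 2.19 in cerebellum sham libraries. Of the 18, 3 were called higher and 0 lower, against 3.21% and 2.92% over all genes. The median log2 fold change of the 18 was 1.11 in the hippocampus, 0.24 in the cortex and -0.26 in the cerebellum. Without the hippocampus it was -0.09. Members called as common were the Wnt effector Tcf7l2 (1.28 ± 0.28), the habenular receptor Gpr151 (2.25 ± 0.52) and Calb2 (0.54 ± 0.16, log2, SE), of which Calb2 was not called with animal as a random block (animal-block adjusted p = 0.114). Their tissue folds were uneven, with Gpr151 at 3.55 in the hippocampus, 1.25 in the cortex and 0.11 in the cerebellum. The part of neighbouring tissue in these values was not tested.

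Of the 1026 called genes 11 had directions that differed between tissues. The 4 of smallest p with a conventional name were Crct1, Neurl1b, Tac2 and Npw. Tac2, the neurokinin B precursor, averaged a log2 fold change of 1.37 ± 0.30 (SE), with 2.12 in the hippocampus, 0.92 in the cortex and -0.36 in the cerebellum, where it read at most 0.695 CPM in each library. Neurl1b, a ubiquitin ligase, had 1.40, 1.35 and -0.27 in the same order and read at most 1.13 CPM in the cerebellum. Crct1 and Npw were at 0 CPM in all 7 cerebellum libraries and so had no direction there, which is not an opposite change. Npw, a neuropeptide precursor, read 7.10 CPM in hippocampus bulbectomy 2 and 21.3 CPM in cortex bulbectomy 2, against 0.38 to 1.94 CPM in the other hippocampus and cortex bulbectomy libraries and 0.12 to 1.47 CPM in those of sham.

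Tissues were then set against each other. In the interaction of tissue and bulbectomy edgeR called 1 gene, 0.00604% of those tested, and 408 had an unadjusted p under 0.05, which is 2.46% of all genes. Among the 1015 common genes 30 had an unadjusted interaction p under 0.05. DESeq2's likelihood ratio test called 5. The gene called was Gm5741, which read 5.34, 3.18, 4.19 and 2.66 CPM in hippocampus bulbectomy and 0 to 0.030 CPM in hippocampus sham, and at most 0.312 CPM in every cortex and cerebellum library.

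A gene passing in each tissue by itself is a harder requirement than a shared average. The intersection-union test, which takes the weakest of the 3 tissues, called 0 genes (smallest adjusted p = 0.154 in edgeR), and 135 genes had an unadjusted p under 0.05 in it. Bulbectomy and sham libraries did not overlap in any of the 3 tissues, in 1 direction, for 28 genes, 0.169% of those tested, 18 higher and 10 lower. Besides those already given these included Ccdc74a, Cavin1 and Orai2 among the higher and Gon4l, Akap1 and Myo16 among the lower, named here after their values were seen. Cavin1, a caveola coat protein, rose by 0.61 ± 0.10 and Orai2, a calcium-release-activated channel subunit, by 0.51 ± 0.10, and Akap1, which anchors protein kinase A at mitochondria, fell by 0.47 ± 0.09 (log2, SE).

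The hippocampus carried most of the calls. Of the 1015 genes 886 had an unadjusted p under 0.05 in the hippocampus, 434 in the cortex and 426 in the cerebellum, against 16.52%, 5.18% and 6.51% of all tested genes. Without the hippocampus 9 genes were called, all of them among the 1015: Lrrc8a, Zmat3, Tpm3-rs7, Vcp-rs, Gm14719, Gm7868, Gm42853, 5330406M23Rik and Gm10499. Without the cortex 332 genes were called with the same direction in the other 2 tissues, and 329 of them had that direction in the cortex too, as did 72.65% of all genes. Without the cerebellum 739 were called so, and 671 of them had that direction in the cerebellum, as did 69.42% of all genes. These fits share no library with the tissue left out, but most of its animals.

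The common fold change followed transcript length and base composition. Its median was 0.14 in the decile of genes with the shortest exon sequence and -0.23 in the decile with the longest, and -0.22 in the decile with the lowest GC content and 0.10 in the decile with the highest. The genes called higher had a median exon length of 3039 bases, those called lower 6233 and all tested genes 4133. The fitted trend from the shortest to the longest decile within a library ran from -0.59 to 0.06 log2 units in hippocampus bulbectomy and from -0.58 to 0.64 in hippocampus sham libraries, and it was 1.54 in cerebellum sham 1. With a trend over length and GC removed from each library, 867 of the 1015 genes were still called, and the protocadherin and glucocorticoid lists kept medians of -0.83 and 0.38. The median of the mitochondrially encoded genes was then 0.49, and of the genes named above Ddit4, mt-Nd1, mt-Nd6, Cox7a2 and Rasgrf2 were no longer called (edgeR adjusted p = 0.126, 0.095, 0.139, 0.079 and 0.111). With the trend removed and animal as a random block together, limma called 971 genes, 637 of the 1015 among them. Cox8a, mt-Nd4, Gstm1, Srxn1 and Cd68, called with animal as a random block alone, were not called in that fit. Neither were Ddit4, mt-Nd1 and mt-Nd6.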

How the data were processed

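RNA-seq was single-end on polyA RNA (RIN 8 or more), from directional libraries, per the labels. The deposited files hold raw counts per Ensembl gene for each library, made by the authors with Trimmomatic, STAR and featureCounts on mm10, per the submitters' processing notes. Those sources give neither tool versions nor the strand setting, so genes overlapping another gene are uncertain. Each file listed 55487 identifiers, of which 55227 are in GENCODE M21, and 12 totals, which were kept out. Assigned reads per library were 3255661 to 138963332; 3 reads equal 0.018 to 0.89 CPM, and depth covers counting error only.

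After filterByExpr and TMM scaling, genes went into edgeR 4.0.16 (robust quasi-likelihood, tissue plus bulbectomy, two-sided, Benjamini-Hochberg over all 16564 genes, called under 0.05). Tissue folds, the interaction and the intersection-union test came from a fit of 6 group means. CPM use the scaled library size. Animals were allowed for with limma 3.58.1, and DESeq2 1.42.0 was an alternative. The code was tested on simulated data. Nothing shows that libraries of different number are biological replicates beyond the genes chosen for varying between sham numbers. Genes named were the 12 of smallest p in each direction without predicted names, 4 called without 1 sign in all 3 tissues, and up to 3 called members of each of 36 lists. Values of some genes are not reported here. The members, lists and tests were chosen with earlier results of these data known.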

Additional observations from a re-analysis of the deposited data

Results flagged for a closer look

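Within groups of 4 or 5 libraries the value farthest from the others was compared with Dixon's critical value for 260 gene and group pairs, of which chance alone flags about 5%, and 21 were flagged. Cerebellum sham 1 gave 6 of them, each time high: Dpysl2 at 93.8 CPM (31.9 to 39.8 in the other shams), Inafm2 at 24.4 (10.2 to 12.2), Mllt6 at 101.5 (57.5 to 68.7), Sox9 at 31.6 (12.9 to 14.6), Abcb1a at 18.8 (5.88 to 8.49) and Hdac4 at 32.5 (12.1 to 16.7). In hippocampus bulbectomy, Nlgn3 read 70.6 and Npw 7.10 CPM in number 2, and Tmem132a 46.8 and Gstm1 715 CPM in number 4. In hippocampus sham, Tsc22d3 read 19.2 and mt-Nd4 9056 CPM in number 1, Tac2 9.94 CPM in number 2 and Crct1 0.105 CPM in number 5. In cortex sham, Chpf2 read 28.2 CPM in number 5, Crct1 0.309 CPM in number 1, and Fgfr3 75.5 and Gfra1 22.1 CPM in number 2. In cerebellum sham, Neurl1b read 1.13 CPM in number 2, Tek 8.05 CPM in number 4 and mt-Nd1 17970 CPM in number 5.

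The bulbectomy effect on Gm5741 differed between tissues (interaction adjusted p = 0.0474 in edgeR). Its log2 fold change was 0.34 ± 0.93 (SE) in the cortex and -0.61 ± 0.98 in the cerebellum, and in the hippocampus its sham libraries held almost no reads.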

How the results depend on the processing

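The 66 genes chosen by the naming rule kept their direction under each of the 55 alternatives that gave them a value. Of the 24 of smallest p, 4 were called without the hippocampus. With cortex bulbectomy 4 apart, 23 of the 24 were called with animal as a random block and 19 over animal means. The number of genes called for the common effect was 1026, with 1015 in 1 direction in all 3 tissues. It was 354 (347 in 1 direction) with animal as a random block taken from the numbers, 481 (471) with cortex bulbectomy 4 apart, 13 (13) over animal means and 112 (111) over animal means with cortex bulbectomy 4 apart. DESeq2 called 1781 (1742), voom with sample weights 2264 (2208), no filter 644 (631), a fold threshold of 1.2 150 (147), and removal of the length and GC trend 1695 (1672). Without the hippocampus 9 (9) were called, without the cortex 334 (332), on numbers 1 and 2 alone 12 (12), and without cortex bulbectomy 1 and cerebellum sham 1 together, a choice made after seeing the data like the fits with cortex bulbectomy 4 apart, 2753 (2554). Leaving out 1 library or 1 number gave 100 to 2336 (99 to 2300). Numbers that moved it by more than 1.5 times were bulbectomy 1 (1706), 2 (100) and 4 (258) and sham 4 (507) and 5 (652). Cortex bulbectomy 1 left out gave 2336, cortex bulbectomy 2 or 4 left out gave 562 and 566, and hippocampus bulbectomy 2 or 4 and cerebellum bulbectomy 1 or 2 gave 657 to 672.

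The replicate number as a block shared by both treatments gave 2357 (2341) calls, 1 gene by the intersection-union test and 0 in the interaction. Only 3 of 9 same-numbered pairs of bulbectomy and sham libraries had deviations correlating over 0.1 (-0.27 to 0.29). Same-numbered pairs within a treatment did not all pass 0.1 either. This value therefore cannot decide whether numbers share anything across treatments. The interaction called 5 genes with DESeq2, 0 with a stricter filter, 0 without hippocampus sham 1 and 2, and 0 to 2 with 1 library or number left out. The intersection-union test called 0 to 2 with 1 library or number left out. Depth limits Pcdhac1 and Adnp, and 2 bulbectomy libraries limit the cerebellum.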

Other observations

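Immunoglobulin genes varied widely between libraries of 1 tissue in both treatments. The kappa constant gene Igkc read 1711, 662, 2162 and 70.5 CPM in hippocampus bulbectomy 1 to 4 and 1495, 3159, 146, 2963 and 1039 CPM in hippocampus sham 1 to 5. Sham 3 was the lowest sham in the cortex (296 CPM) and in the cerebellum (106 CPM) as well. The libraries of 1 number were not always level. Sham 1 read 1206 CPM in the cortex and 185 CPM in the cerebellum, while sham 5 read 1066 and 1081 CPM. Ighg1, a heavy chain constant gene, read 12.8 CPM in hippocampus bulbectomy 4, 289 to 519 CPM in the other hippocampus bulbectomy libraries, and 18.8 to 1695 CPM in hippocampus sham libraries. Its common log2 fold change was -0.84 ± 0.64 (SE, edgeR adjusted p = 0.444), and that of Igkc -0.58 ± 0.52 (adjusted p = 0.523).

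Rps3a3, a copy of a ribosomal protein gene, read 157 to 284 CPM in all 9 bulbectomy libraries. In sham libraries it read 41.7 to 254 CPM in numbers 1 to 3 and 0.63 to 1.22 CPM in numbers 4 and 5. It was not called (edgeR adjusted p = 0.382).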
